A study of Mus musculus with 4 samples.

Results

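Sln, Nmbr, Ppp1r17 and Parp3, which encode a regulator of calcium pumps, a neuropeptide receptor, a phosphatase inhibitor and an ADP-ribosyltransferase, were 5.0-fold to 6.45-fold higher in Ctcf-null than in control mouse telencephalon at embryonic day 14. They are described here beside 6 relatives, the calcium pump genes Atp2a2 and Atp2a3, the bombesin receptor gene Grpr, the peptide gene Nmb, and Parp1 and Parp2. These 10 genes were found by symbol among 48795 genes of the deposited table, and 9 of them passed the filter on low counts that left 22158 genes for testing. The first 4 were chosen for their rise in these same libraries, so their difference between genotypes is a description and carries no test. The relatives were chosen by family, and for them the test across all genes was read.

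The Ctcf-null embryos carried floxed Ctcf and the NestinCre transgene, in which Nestin sequences drive Cre recombinase in neural progenitors, and the controls carried floxed Ctcf without Cre. Both genotypes were of the C57BL/6 strain, and each had 2 libraries of dissected telencephalon, numbered as pair 1 and pair 2. Cells that do not descend from Nestin-expressing progenitors, such as blood and microglia, are not targeted by this Cre. Per the labels it is unclear if each library is from its own embryo. Any spread between libraries that enters a p-value may therefore be technical. In limma the variance behind a p-value came mostly from a trend fitted over all tested genes, with a prior of 18.1 degrees of freedom. A gene's own libraries gave 1 residual degree of freedom.

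Sarcolipin, the product of Sln, is a very short membrane peptide best known from skeletal and atrial muscle, where it binds the SERCA calcium pumps of the endoplasmic reticulum and lowers their transport. The neuromedin B receptor encoded by Nmbr belongs to the bombesin receptor family, which couples through Gq proteins to phospholipase C and calcium release. Ppp1r17 encodes G-substrate, a target of cyclic GMP-dependent protein kinase that inhibits the protein phosphatases PP1 and PP2A and is abundant in cerebellar Purkinje cells. PARP3 is a nuclear enzyme that attaches ADP-ribose at DNA breaks, as do the related PARP1 and PARP2.

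Sequences are shown for Sln, because its whole coding stretch is short enough to read. The starts of Nmbr, Parp3 and Grpr are shown because they set 2 genes that were higher beside a receptor gene with too few reads to test. The Sln coding sequence has 31 codons before the stop and lies in 1 exon (GENCODE M21, GRCm38, plus strand), with its first and last codon in capitals. The promoters are from RefSeq (GRCm38.p6), 250 bases before to 50 bases after the start site, 5′ to 3′ on the gene's strand, with motif matches in capitals (CCAAT reads ATTGG where it is on the other strand).
Sln coding sequence, chr9:53853473-53853568: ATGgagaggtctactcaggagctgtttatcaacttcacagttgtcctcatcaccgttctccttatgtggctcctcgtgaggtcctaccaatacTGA
Nmbr promoter, chr10:14759697-14759996, plus strand: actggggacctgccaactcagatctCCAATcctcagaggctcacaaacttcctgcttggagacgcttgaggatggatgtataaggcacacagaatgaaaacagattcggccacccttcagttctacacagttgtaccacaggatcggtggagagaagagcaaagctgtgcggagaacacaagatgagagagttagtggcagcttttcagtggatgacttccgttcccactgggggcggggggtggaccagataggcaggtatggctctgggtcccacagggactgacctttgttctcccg
Parp3 promoter, chr9:106476900-106477199, minus strand: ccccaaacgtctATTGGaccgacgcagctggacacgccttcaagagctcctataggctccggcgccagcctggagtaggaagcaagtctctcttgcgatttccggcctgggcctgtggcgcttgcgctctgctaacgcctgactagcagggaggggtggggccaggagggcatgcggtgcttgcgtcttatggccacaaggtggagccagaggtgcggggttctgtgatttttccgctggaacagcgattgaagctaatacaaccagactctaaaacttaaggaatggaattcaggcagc
Grpr promoter, chrX:163549687-163549986, minus strand: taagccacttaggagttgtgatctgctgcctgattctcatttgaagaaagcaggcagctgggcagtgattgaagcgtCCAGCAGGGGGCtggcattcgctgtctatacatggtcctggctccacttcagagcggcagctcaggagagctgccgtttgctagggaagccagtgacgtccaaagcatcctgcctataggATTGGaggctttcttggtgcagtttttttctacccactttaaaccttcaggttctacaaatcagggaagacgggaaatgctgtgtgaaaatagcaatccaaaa

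RefSeq promoters were matched for 7 of the 10 genes. Both strands were searched for the core of the CTCF motif with any base at its variable positions, which 8.61% of 32851 promoter windows of 300 bases hold, and for CCAAT, which 37.4% hold. That core was found once, in the Grpr promoter 173 bases before the start, and in none of the promoters of Nmbr, Parp3, Atp2a3, Nmb, Parp1 and Parp2. CCAAT was found 238 bases before the start of Parp3, 225 before that of Nmbr and 53 before that of Grpr. The TATA box TATAAA, held by 13.6% of windows, was found in none of the 7. The Nmbr window had 7 CpG dinucleotides, the median of all windows, and the Grpr window had 6, whereas Parp3 had 16, Parp1 20 and Parp2 25. A match is a run of letters and not a measured binding site.

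Values per library are the authors' normalized read counts, which are read counts divided by 1 factor per library and not by gene length. The libraries held 25519331 to 43812558 reads, recovered from these values. The Ctcf transcript was at 38.89 and 61.96 normalized counts in Ctcf-null 1 and 2, against 436.72 and 1133.21 in controls 1 and 2. Across the table the pairs differed more than the genotypes, and the test was limma on log2(value + 1) with the pair as a block. In it 13.7% of the tested genes passed an adjusted p of 0.05, with 3.67% higher and 10.1% lower in Ctcf-null libraries. Without the block no gene passed in limma, where 170 had an unadjusted p under 0.05, nor in edgeR, where 174 did. Rises were 26.7% of the calls with the deposited size factors, 41.6% with TMM factors and 57.7% with upper-quartile factors. The median log2 fold change of all tested genes was -0.07, -0.01 and 0.04 under these scalings. Small differences near those medians are therefore to be read against them. In whole tissue, more cells that express a gene and more RNA per cell cannot be told apart.

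**Figure D1:**
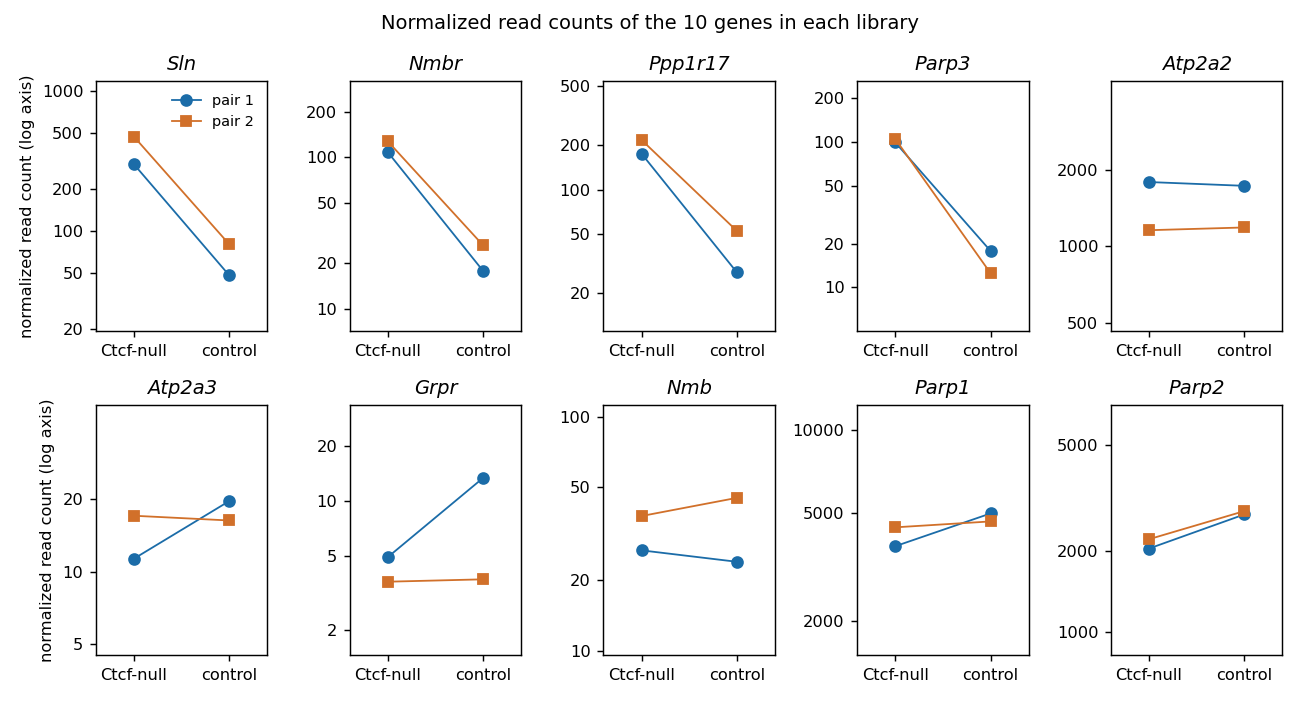
Normalized read counts (log axis) of the 10 genes in the 2 Ctcf-null and the 2 control libraries, with a line joining the libraries of a pair. For Sln, Nmbr, Ppp1r17 and Parp3 both Ctcf-null points lie above both control points, and for the other 6 genes they do not.

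Sln (chromosome 9, 53850164 to 53854560, plus strand, 2 exons) was at 298.4 and 470.16 normalized counts in Ctcf-null 1 and 2, against 48.03 and 80.05 in controls 1 and 2. The groups did not overlap, and in each genotype the library of pair 2 was the higher one. Both Ctcf-null values were above both control values for 6.45% of tested genes, and 0.122% were at least 4-fold higher in both pairs, among them Sln, Nmbr, Ppp1r17 and Parp3, which were chosen for it. The ratio within pairs was 6.21 (95% counting interval 4.67 to 8.41) in pair 1 and 5.87 (4.50 to 7.78) in pair 2. These exact binomial intervals, from 422 and 54 reads in pair 1 and 387 and 64 in pair 2, cover counting error only. The log2 fold change of the fit was 2.57 (SE 0.15), and over the 10 other fits tried it lay between 2.499 and 2.682. By that fold change Sln ranked 17th among all tested genes.

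Neither tested relative of the pump family that sarcolipin acts on passed the test. Atp2a2, the gene of the widely expressed pump SERCA2 (chromosome 5, 122453513 to 122502225), was at 1790.39 and 1156.57 normalized counts in Ctcf-null libraries, against 1729.96 and 1185.75 in controls. Each Ctcf-null library lay beside the control of its own pair, with ratios of 1.04 (counting interval 0.975 to 1.10) and 0.975 (0.891 to 1.07). The log2 fold change was 0.01 (SE 0.08, limma adjusted p = 0.97). Atp2a3, the gene of SERCA3 (chromosome 11, 72961169 to 72993044), was at 11.31 and 17.01 in Ctcf-null libraries, against 19.57 and 16.26 in controls. Its groups overlapped, and the log2 fold change was -0.34 (SE 0.39, limma adjusted p = 0.64). Atp2a3 had 13 to 22 reads a library. The counting interval of its ratio ran from 0.284 to 1.15 in pair 1 and from 0.456 to 2.42 in pair 2. The counts are compatible with any ratio within those bounds, which leave out spread between libraries. Per kilobase of exon, Sln was at 226 and 357 normalized counts in Ctcf-null libraries, and Atp2a2 at 294 and 190. In controls the same levels per kilobase were 36.4 and 60.7 for Sln, and 284 and 195 for Atp2a2. The level of Sln per kilobase was thus below that of Atp2a2 in both controls and in Ctcf-null 1, and above it in Ctcf-null 2. In both genotypes Sln was higher and Atp2a2 lower in pair 2 than in pair 1. The order of the 2 genes in Ctcf-null libraries thus depended on the pair.

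Of the 9 pumps and small regulators listed, 8 were tested. Sln, chosen for its rise, was higher, and 1810037I17Rik, which encodes the SERCA inhibitor another-regulin, fell by 0.28 on the log2 scale (SE 0.07, limma adjusted p = 0.0125). That fall did not pass with upper-quartile factors or in DESeq2. Phospholamban, the heart inhibitor of SERCA and the closest relative of sarcolipin, is encoded by Pln, which was at 53.74 and 8.5 normalized counts in Ctcf-null libraries, against 52.48 and 8.76 in controls, level within each pair. Atp2a1, the gene of the fast muscle pump, was at 33.23 and 15.79 in Ctcf-null libraries, against 12.45 and 8.76 in controls. Its log2 fold change was 1.07 (SE 0.39), which did not pass in limma (adjusted p = 0.0765) and passed in edgeR with the block (adjusted p = 0.027). The gene of DWORF, a SERCA activator, had 0 reads in each library. The list's median log2 fold change was -0.06, against -0.07 for all tested genes.

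Among 25 other genes of calcium stores and calcium transport, 23 were tested, of which 2 rose and 4 fell. Of all tested genes 3.67% rose and 10.1% fell. The 4 genes of the list with the largest changes are given. The plasma membrane calcium pumps went both ways. Beyond those 4 genes, Atp2b1 rose by 0.32 on the log2 scale (SE 0.08, limma adjusted p = 0.011). Atp2b2 was at -0.01 and did not pass. Atp2b4 fell to 195.87 and 108.12 normalized counts in Ctcf-null libraries, against 472.29 and 270.17 in controls (log2 fold change -1.29, SE 0.13, limma adjusted p = 8.0e-07). Atp2b3 rose to 100.41 and 102.05 in Ctcf-null libraries, against 54.26 and 75.05 in controls (log2 fold change 0.66, SE 0.20, limma adjusted p = 0.035). The calcium sensor gene Stim1 fell by 0.50 on the log2 scale and the store-operated channel gene Orai2 by 0.40, with limma adjusted p of 0.020 and 0.021. Under upper-quartile factors the falls of Stim1 and Orai2 no longer passed, and that of Orai2 did not pass with TMM factors either. In DESeq2 neither these 2 falls nor the rises of Atp2b1 and Atp2b3 passed. Over the 23 genes the median was -0.01.

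**Figure D2:**
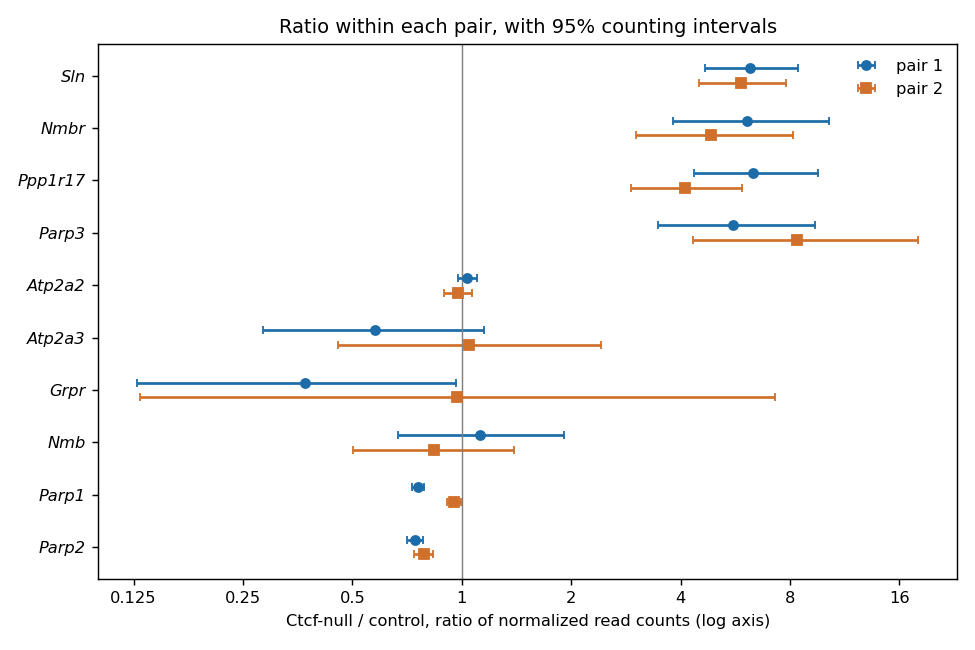
Ratio of normalized read counts, Ctcf-null over control, within pair 1 and pair 2 for the 10 genes (log axis), with bars for 95% exact binomial intervals that cover counting error only. The ratios of Sln, Nmbr, Ppp1r17 and Parp3 lie between 4.12 and 8.35 in both pairs, and those of the other 6 genes between 0.371 and 1.12.

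Nmbr (chromosome 10, 14705591 to 14770850, plus strand) was at 108.19 and 127.56 normalized counts in Ctcf-null libraries, against 17.79 and 26.27 in controls. Both Ctcf-null values were above both controls, and the ratio was 6.08 (counting interval 3.80 to 10.2) in pair 1 and 4.86 (3.02 to 8.17) in pair 2. The fit gave a log2 fold change of 2.39 (SE 0.24), with 2.198 to 2.495 over the other fits. GENCODE draws Nmbr from an upstream first exon, and the promoter printed above starts at the RefSeq start inside that span. An antisense gene, B230364G03Rik, lies across the RefSeq start and shares 504 of the 3228 exon bases of Nmbr. It had 0 reads in both Ctcf-null libraries, against 2.67 and 2.5 normalized counts in controls, so its own count was at or near 0 in each library. A processed pseudogene on the opposite strand, Gm8355, lies in an intron of Nmbr and shares no exon base with it, at 22264.67 and 5701.46 normalized counts in Ctcf-null libraries, against 25092.05 and 5879.94 in controls. Per kilobase of exon Nmbr was at 33.5 and 39.5 in Ctcf-null libraries and at 5.51 and 8.14 in controls.

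The ligand and the other receptors of the bombesin family had low counts, not divided by gene length, in all libraries. Nmb, which encodes the ligand neuromedin B (chromosome 7, 80902227 to 80905076), was at 26.87 and 37.66 normalized counts in Ctcf-null libraries, against 24.01 and 45.03 in controls. It was higher in Ctcf-null than in control in pair 1 and lower in pair 2, and the log2 fold change was -0.05 (SE 0.29, limma adjusted p = 0.94). Per kilobase of exon Nmb was at 33.9 and 47.5 in Ctcf-null libraries and at 30.3 and 56.8 in controls, above Nmbr in each library. Nmb shares 163 of its 793 exon bases with Sec11a on the same strand, so part of its reads may be of either gene. Sec11a was at 3078.74 and 4759.92 in Ctcf-null libraries, against 3354.09 and 5050.67 in controls. Grpr, the gene of the gastrin-releasing peptide receptor (chromosome X, 163513904 to 163549677), had 7 and 3 reads in Ctcf-null 1 and 2, against 15 and 3 in controls 1 and 2. It was below the filter and was not tested. Its normalized counts were 4.95 and 3.64 in Ctcf-null libraries and 13.34 and 3.75 in controls, with counting intervals of the ratio of 0.128 to 0.967 in pair 1 and 0.130 to 7.25 in pair 2. Brs3, the gene of bombesin receptor subtype 3, was also below the filter, at 4.95 and 2.43 in Ctcf-null libraries and 8.89 and 15.01 in controls. Grp, the gene of gastrin-releasing peptide, was at 16.97 and 104.48 in Ctcf-null libraries, against 8 and 65.04 in controls, with a log2 fold change of 0.84 that did not pass (SE 0.29, limma adjusted p = 0.062). Of the 3 tested genes of this family, Nmbr was therefore the one that passed, and it had been chosen for that. Grp passed with upper-quartile factors.

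Downstream of such receptors, 2 of 18 tested genes of the Gq and phospholipase C list rose and 1 fell. Shares over all tested genes were 3.67% higher and 10.1% lower. Plcb4, which encodes a phospholipase C activated by Gq, rose to 401.64 and 221.11 normalized counts in Ctcf-null libraries, against 237.48 and 140.09 in controls (log2 fold change 0.71, SE 0.13, limma adjusted p = 0.00092). Plcb1, its relative, fell to 290.62 and 138.5 in Ctcf-null libraries, against 415.37 and 305.19 in controls (log2 fold change -0.82, SE 0.14, limma adjusted p = 0.00049). Adrbk2, a kinase gene whose product turns off activated receptors, rose by 0.48 on the log2 scale (SE 0.12, limma adjusted p = 0.014), and this rise did not pass in DESeq2. The Gq alpha subunit gene Gnaq was at 9269.46 and 8003.67 in Ctcf-null libraries, against 8125.05 and 8263.94 in controls, and did not pass (limma adjusted p = 0.54). The median over the 18 genes was -0.08.

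Ppp1r17 (chromosome 6, 56017497 to 56032689, plus strand) was at 174.66 and 216.25 normalized counts in Ctcf-null libraries, against 27.57 and 52.53 in controls. The groups did not overlap, and pair 2 was again the higher in each genotype. The ratio was 6.33 (counting interval 4.35 to 9.53) in pair 1 and 4.12 (2.93 to 5.91) in pair 2, and the intervals of the pairs overlapped. The log2 fold change was 2.32 (SE 0.20), with 2.20 to 2.43 over the other fits. Per kilobase of exon its level was 99.4 and 123 in Ctcf-null libraries and 15.7 and 29.9 in controls.

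Inhibitors of PP1 and PP2A were called in both directions. Of 20 tested genes in this list 2 were higher and 3 lower, and Ppp1r17, chosen for its rise, was one of the 2. Over all tested genes the shares were 3.67% higher and 10.1% lower. Ppp1r14a, a PP1 inhibitor of smooth muscle, fell to 5.66 and 66.82 normalized counts in Ctcf-null libraries, against 16.01 and 181.36 in controls (log2 fold change -1.39, SE 0.28, limma adjusted p = 0.0021). Ppp1r1a, the gene of inhibitor 1, rose by 0.42 on the log2 scale (SE 0.10, limma adjusted p = 0.0071), and Set, an inhibitor of PP2A, fell by 0.32 (SE 0.06, limma adjusted p = 0.0021). The change of Ppp1r1a did not pass in DESeq2, and that of Set passed neither there nor with upper-quartile factors. The other gene that fell was Ppp1r14b, a relative of Ppp1r14a, and it did not pass in edgeR, in DESeq2, with a pseudocount of 0.5, with TMM or with upper-quartile factors. The 20 genes had a median log2 fold change of -0.16. Among 7 genes of the phosphatase catalytic and scaffold subunits, the PP2A catalytic gene Ppp2cb rose by 0.36, and the PP1 catalytic genes Ppp1ca and Ppp1cc fell by 0.30 each. With upper-quartile factors neither fall passed, with TMM factors that of Ppp1cc did not, and none of these 3 changes passed in DESeq2. That list's median was -0.08.

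The kinases that phosphorylate G-substrate were low and did not pass. Prkg1 was at 49.5 and 30.37 normalized counts in Ctcf-null libraries, against 45.36 and 32.52 in controls, and did not pass (limma adjusted p = 0.98). Prkg2 was at 82.73 and 65.6 in Ctcf-null libraries, against 60.48 and 57.54 in controls (limma adjusted p = 0.37). Of 17 tested genes of the cyclic GMP pathway 1 rose and 2 fell, against 3.67% and 10.1% of all tested genes. The gene that rose was Pde1c, a phosphodiesterase gene that also neighbours Ppp1r17, at 1188.65 and 736.22 in Ctcf-null libraries, against 389.58 and 265.17 in controls (log2 fold change 1.54, SE 0.10, limma adjusted p = 1.2e-09). Nos1, which encodes the neuronal nitric oxide synthase, fell by 0.61 (SE 0.14), and the phosphodiesterase gene Pde9a fell by 0.39 (SE 0.08). Both falls passed in edgeR and with each scaling, and neither passed in DESeq2. The 17 genes had a median of -0.05.

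Parp3 (chromosome 9, 106470322 to 106476949, minus strand) was at 98.99 and 104.48 normalized counts in Ctcf-null libraries, against 17.79 and 12.51 in controls. Its 2 Ctcf-null values were close to each other and above both controls. The ratio was 5.57 (counting interval 3.47 to 9.39) in pair 1 and 8.35 (4.33 to 18.0) in pair 2, the second resting on 10 reads in control 2. The log2 fold change was 2.69 (SE 0.27), with 2.42 to 2.79 over the other fits, and Parp3 ranked 15th among all tested genes.

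Parp1 and Parp2 went the other way by a small amount. Parp2 (chromosome 14, 50807841 to 50821301) fell to 2049.2 and 2220.81 normalized counts in Ctcf-null libraries, against 2749.27 and 2829.28 in controls. Both Ctcf-null values were below both controls, as for 7.64% of tested genes. The log2 fold change was -0.39 (SE 0.07, limma adjusted p = 0.00095), and the call held in each of the 8 other fits that kept the pair as a block. Parp1 (chromosome 1, 180568924 to 180601254) was at 3764.64 and 4413.68 in Ctcf-null libraries, against 4962.2 and 4639.17 in controls. It was also below both controls, but the ratio was 0.759 in pair 1 and 0.951 in pair 2, and the counting intervals of the pairs, 0.731 to 0.788 and 0.909 to 0.996, did not overlap. The log2 fold change was -0.24 (SE 0.08, limma adjusted p = 0.044), and this call was lost in 5 of the 8 other fits with the block, edgeR among them (adjusted p = 0.12). Among the 5 relatives tested, 2 thus passed in limma with the block and 1 in edgeR, where 11.9% of all genes passed. Per kilobase of exon, Parp3 was at 26.8 and 28.2 in Ctcf-null libraries, against 4.81 and 3.38 in controls. Parp1 was at 711 and 834 per kilobase in Ctcf-null libraries, against 938 and 876 in controls, so Parp3 was the far lower of the 2 in each library.

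Of 16 tested genes of the PARP family, Parp3 was higher, Parp1 and Parp2 fell, and the other 13 did not pass. Calls over all tested genes were 3.67% higher and 10.1% lower. Values without a call included 0.77 for Parp10 on the log2 scale (SE 0.32, limma adjusted p = 0.13). Parp14 was at 0.42 (SE 0.32, limma adjusted p = 0.43), Parp4 at 0.12 and Zc3hav1 at -0.0002. The family's median was 0.07. Of 18 partners in DNA break repair 3 fell, where 10.1% of all tested genes did. Adprhl2, which encodes the hydrolase that takes ADP-ribose off serine, fell to 97.58 and 607.44 normalized counts in Ctcf-null libraries, against 247.26 and 1927.46 in controls (log2 fold change -1.50, SE 0.11, limma adjusted p = 1.4e-08). Xrcc6, which encodes the Ku70 subunit, fell by 0.27 and the DNA end processing gene Aptx by 0.26, and neither passed in edgeR, in DESeq2, with TMM or with upper-quartile factors. Aplf, whose product works with PARP3 in end joining, was at 117.38 and 355.96 in Ctcf-null libraries, against 112.96 and 318.95 in controls, and did not pass (limma adjusted p = 0.68). The median of the partners was -0.09.

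**Figure D3:**
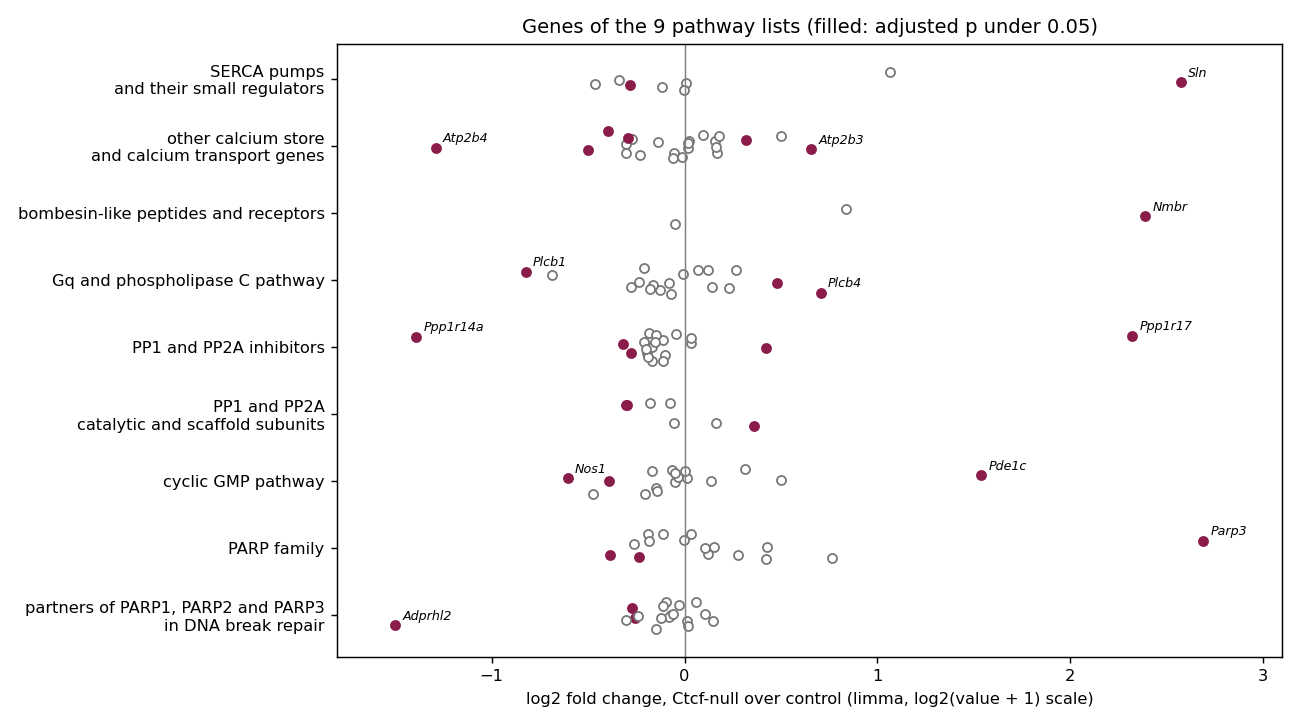
Log2 fold changes (limma, log2(value + 1) scale, Ctcf-null over control) of the tested genes of 9 pathway lists, 1 point per gene, filled where the adjusted p was under 0.05, with vertical scatter for display only. Sln at 2.57, Nmbr at 2.39, Ppp1r17 at 2.32 and Parp3 at 2.69 lie farther right than the other genes of their lists.

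The nearest 3 protein-coding genes on each side of the 4 genes were read next, because CTCF shapes contacts between neighbouring genes. Of these 24 neighbours 19 were tested, of which 3 rose and 4 fell. Among all tested genes 3.67% were called higher and 10.1% lower. Whether neighbours differ from other genes was not tested. Beside Sln, Slc35f2, a gene of the solute carrier family 32010 bases away, rose to 172.53 and 510.25 normalized counts in Ctcf-null libraries, against 72.93 and 291.43 in controls (log2 fold change 1.02, SE 0.14, limma adjusted p = 5.4e-05). On the other side Elmod1, 56897 bases away, was at 0.08 on the log2 scale and did not pass (limma adjusted p = 0.77). Rab39 and Tnfaip8l3, farther out, were higher in both pairs without passing, at 0.41 and 0.52 (limma adjusted p = 0.13 and 0.43). Cul5 was at -0.09 and did not pass. Beside Ppp1r17, Pde1c at 37115 bases rose, as given above, and Adcyap1r1, the gene of the PACAP receptor at 516046 bases, rose to 1711.2 and 1499.17 normalized counts in Ctcf-null libraries, against 857.42 and 729.21 in controls (log2 fold change 1.02, SE 0.08, limma adjusted p = 3.5e-08). Between Adcyap1r1 and Ppp1r17 lie Neurod6, which fell by 0.27, and Itprid1, which was at -0.29 and did not pass. The rises of Slc35f2, Pde1c and Adcyap1r1 were called in each of the 8 other fits with the block. The fall of Neurod6 did not pass in DESeq2 or with upper-quartile factors. Lsm5, on the far side of Pde1c, fell by 0.28 in limma and did not pass in edgeR, in DESeq2, with TMM or with upper-quartile factors. Beyond Lsm5, Avl9 was at 0.26, which passed in edgeR with the block (adjusted p = 0.038) and not in limma (adjusted p = 0.077).

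None of the tested neighbours of Nmbr and Parp3 passed as higher. Adgrg6, beyond Vta1 from Nmbr, was higher in both pairs without passing (log2 fold change 0.73, SE 0.35, limma adjusted p = 0.19). Txlnb and Heca, on the other side of Nmbr, were at -0.04 and -0.03. Vta1, on the opposite strand, starts 31 bases from the GENCODE start of Nmbr, and it was at 2124.15 and 2808.82 normalized counts in Ctcf-null libraries, against 2332.12 and 3190.76 in controls (log2 fold change -0.16, limma adjusted p = 0.15). On the other side the nearest protein-coding gene, Cited2, lay 2952368 bases away and did not pass (limma adjusted p = 0.077). Rrp9, a gene of small nucleolar RNA processing, overlaps the start of Parp3 head to head on the opposite strand, with 20 shared exon bases. It was at 243.24 and 1459.08 normalized counts in Ctcf-null libraries, against 267.72 and 1943.72 in controls (log2 fold change -0.28, SE 0.10, limma adjusted p = 0.071). Pcbp4, 6310 bases from Parp3, fell by 0.47 (SE 0.08) and Abhd14b, 17399 bases away, by 1.09 (SE 0.24), with limma adjusted p of 0.00049 and 0.0041. The fall of Abhd14b did not pass in DESeq2.

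**Figure D4:**
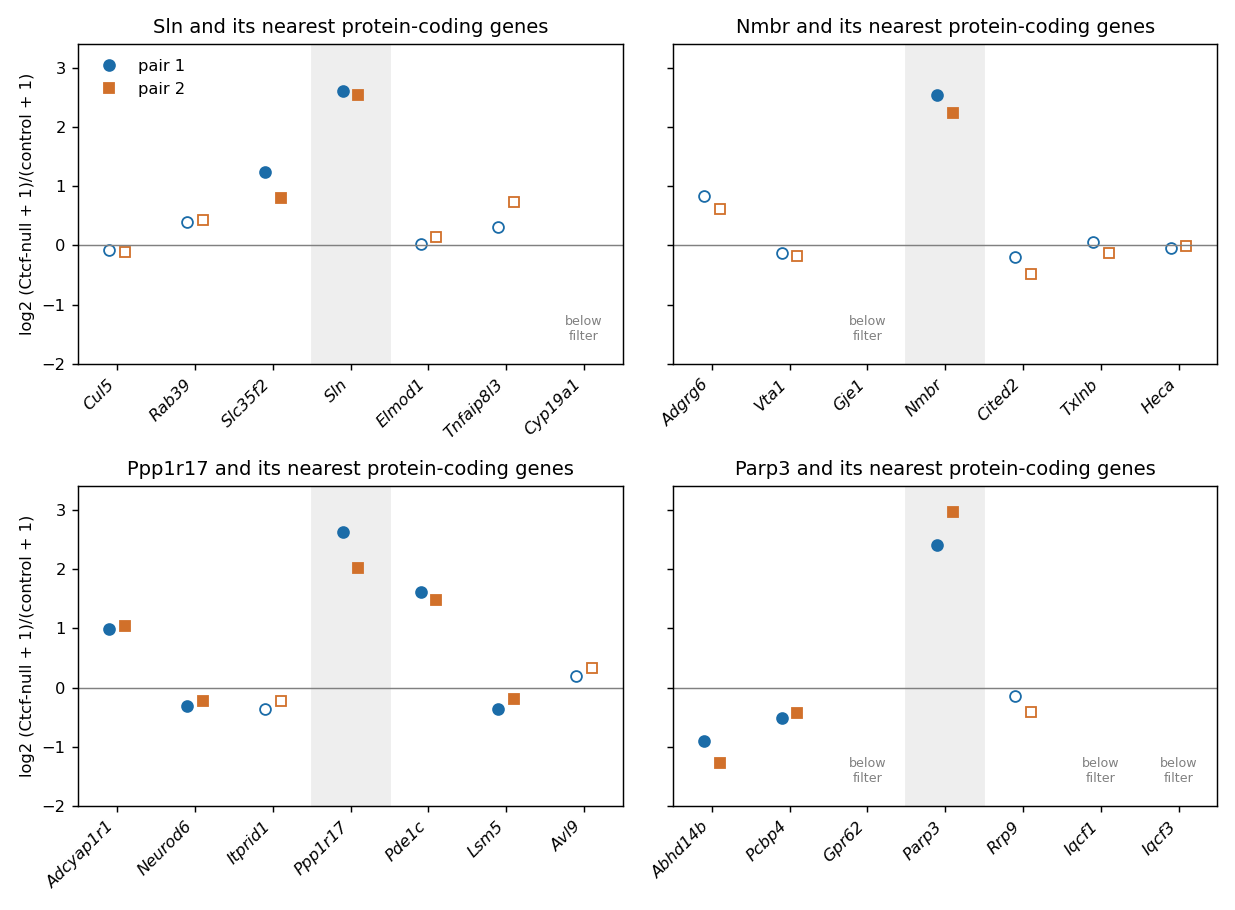
Log2 ratios, (Ctcf-null + 1)/(control + 1), within pair 1 and pair 2 for each of the 4 genes (grey band) and the nearest 3 protein-coding genes on each side, in chromosome order and not to scale, filled where the limma adjusted p was under 0.05. Slc35f2, Pde1c and Adcyap1r1 are filled and lie above 0 in both pairs, and Rab39, Elmod1, Tnfaip8l3, Adgrg6 and Avl9 do so unfilled. Rrp9, Pcbp4 and Abhd14b beside Parp3 lie below 0.

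The 3 genes whose values over the 4 libraries ran most like each of the 4 were found by the Euclidean distance between centred log2(value + 1) values, among tested genes with a mean of at least 10 normalized counts and leaving out the 10 genes themselves. Among these other genes Chrdl1, which encodes an antagonist of bone morphogenetic proteins, was the nearest to Ppp1r17 (distance 0.19) and to Nmbr (0.32), and also among the nearest to Sln (0.47). Its normalized counts were 146.37 and 189.52 in Ctcf-null libraries, against 27.57 and 48.78 in controls. Nearest to Sln among them were Gm10644 (0.30) and Mnd1-ps (0.36), a pseudogene, which followed Chrdl1 for Ppp1r17 (0.38). Coch, the gene of the extracellular protein cochlin, came next for Ppp1r17 (0.46), at 361.33 and 623.24 normalized counts in Ctcf-null libraries, against 84.5 and 161.35 in controls. The pseudogenes Gm5519 (0.38) and Gm13534 (0.40) followed for Nmbr. For Parp3 the nearest were Fam90a1b (0.38), the sodium-proton exchanger gene Slc9a2 (0.41) and the antisense transcript Gm38250 (0.50). Among the 4 themselves, Nmbr and Ppp1r17 were 0.27 apart and Sln 0.37 from Nmbr, whereas Parp3 was 0.79 to 1.06 from the other three. Nmbr was thus nearer to Ppp1r17 than to Chrdl1, and Sln nearer to Nmbr and to Ppp1r17 (0.38) than to Chrdl1. With 4 libraries these distances describe the values and carry no test.

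Markers of the tissue and of other cell types were read because Sln is best known from muscle and Ppp1r17 from Purkinje cells. All 12 telencephalon markers were tested and none was at 0 in any library. Their summed level was 35101 and 42786 normalized counts in Ctcf-null libraries, against 44141 and 56219 in controls. Neurod6 made up most of that sum in each library, at 28697.22 and 25180.94 in Ctcf-null libraries, against 35714.65 and 29513.55 in controls. Of the 12, 9 fell, among them Emx1, Lhx2, Dlx1 and Gad2, and with upper-quartile factors 5 fell. For these marker lists too, the shares over all tested genes in limma were 3.67% higher and 10.1% lower. Of 10 skeletal muscle markers 7 were tested and 1 passed, Acta1, which fell to 213.55 and 74.11 normalized counts in Ctcf-null libraries, against 388.69 and 140.09 in controls. Without passing, Myh3, Actc1 and Ttn were higher in both pairs, at log2 fold changes of 0.86, 0.71 and 0.11, and Mylpf was lower in both, at -0.32. The median of the 7 was 0.11. The summed level of the 10 was 687 and 384 in Ctcf-null libraries, against 826 and 457 in controls. The muscle factor genes Myog, Myod1 and Myf5 were below the filter. Myog was at 0 and 1.21 in Ctcf-null libraries, against 0 and 2.5 in controls. Myod1 was at 4.95 and 7.29 in Ctcf-null libraries, against 5.34 and 2.5 in controls. Myf5 was at 7.07 and 4.86 in Ctcf-null libraries, against 4.45 and 1.25 in controls. Of 8 markers of cerebellum and hindbrain, En1, En2, Pcp2 and Skor2 were at 2.83 normalized counts or less in every library. Hoxb2, Hoxb4 and Egr2 were also below the filter. Hoxb2 was at 8.49 and 1.21 in Ctcf-null libraries, against 18.68 and 1.25 in controls. Hoxb4 was at 4.95 and 3.64 in Ctcf-null libraries, against 2.67 and 3.75 in controls. Egr2 was at 6.36 and 10.93 in Ctcf-null libraries, against 1.78 and 6.25 in controls. Car8, a Purkinje cell gene whose product binds the IP3 receptor, rose to 150.61 and 396.05 in Ctcf-null libraries, against 28.46 and 108.82 in controls (log2 fold change 2.11, SE 0.18, limma adjusted p = 6.5e-08). It made up most of that list's sum in both Ctcf-null libraries and in control 2, and the sums were 177 and 413 in Ctcf-null libraries, against 57.8 and 121 in controls. Choroid plexus markers summed to 95312 and 35662 in Ctcf-null libraries, against 72755 and 24622 in controls, and Ttr and Otx2 of 6 rose. In both pairs 4 of these 6 were higher, and their median log2 fold change was 0.22. Nearly all of the choroid plexus sums was Ttr, at 94451.79 and 34807.7 in Ctcf-null libraries, against 72063.48 and 23920.03 in controls. Markers of microglia summed to 1326 and 2901 in Ctcf-null libraries, against 1077 and 2311 in controls, and C1qb of 6 rose. In both pairs 5 of these 6 were higher, and their median was 0.30. With TMM factors, with upper-quartile factors and in edgeR with the block, 2 of them were called higher. The rises of Otx2 and C1qb did not pass in DESeq2. Of 7 tested thalamus and hypothalamus markers Lhx9 fell and 5 were higher in both pairs without passing, Otp, Gbx2, Fezf1, Tcf7l2 and Pomc, at log2 fold changes of 1.09, 1.05, 0.55, 0.24 and 0.22. The median of the 7 was 0.24. With TMM and with upper-quartile factors 2 of them rose and 0 fell, and edgeR called Tcf7l2 higher (adjusted p = 0.038). Their summed level was 1435 and 2077 normalized counts in Ctcf-null libraries, against 1448 and 1864 in controls. Of 8 endothelial and pericyte markers Pecam1 fell, and it did not pass in edgeR, in DESeq2, with TMM or with upper-quartile factors. In both pairs 5 of these 8 were lower, and their median was -0.20. None of 8 red blood cell and 6 fibroblast markers passed in limma or in edgeR, with 4 and 0 at an unadjusted limma p under 0.05. Hemoglobin-rich sums of the red cell list were 923304 and 623776 in Ctcf-null libraries, against 1341643 and 573600 in controls. The part of these cell types in the differences of the 10 genes was not tested.

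Shared sequence was checked because reads of near-identical copies cannot be placed. Of the 50-base stretches in the transcripts of Sln, Parp3 and Grpr, 0% occurred in transcripts of another GENCODE gene, on either strand. The share was 0.29% for Ppp1r17, 0.07% for Atp2a3, 0.37% for Parp1 and 0.98% for Parp2. It was 12.03% for Nmbr, with the antisense B230364G03Rik, 14.7% for Nmb, with Sec11a, and 3.93% for Atp2a2.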

How the data were processed

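RNA of 4 telencephalon libraries, 2 Ctcf-null and 2 control, was made into cDNA with a Clontech Smart kit, per the labels' protocols. STAR 2.5.3 and DESeq2 are named with mm10 per the submitters' processing notes. The gene counter, its annotation and any strand setting are not given in the sources used. The deposited values are gene signals, called normalized read counts per the file headers and not divided by length. The authors also deposited a log2 fold change for each pair. Adding 1 to both values before taking log2 ratios gave it back to within 0.008.

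In each library at least 99.97% of nonzero values were whole multiples of 1 step within 0.005, which gave back whole reads and the depths. The test was limma 3.58.1 (R 4.3.3) with a mean-variance trend on log2(value + 1) and the pair as a block, for 22158 genes kept by filterByExpr of edgeR 4.0.16. Fold changes on that scale understate those of low counts. Tests were two-sided, with Benjamini-Hochberg adjustment over all tested genes. The fit leaves 1 residual degree of freedom beside a prior of 18.1.

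The replicate numbers pair the samples, because the series' design speaks of 2 pairs and the deposited table has a fold change for each. Same-numbered libraries correlated at r = 0.986 and 0.984 across 21142 genes, which are not independent replicates, and other libraries at 0.880 to 0.898. Alternatives were a fit without the block, edgeR's quasi-likelihood test and DESeq2 1.42.0 on recovered reads, pseudocounts of 0.5 and 5, other filters and other scalings. Of the 3041 limma calls, 2306 were also called in the same direction by edgeR with the block.

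The 10 genes, the 9 pathway lists and the 9 marker lists were chosen with earlier results of these data known. From each pathway list the genes past the threshold are named, up to the 4 with the largest change. Other named list genes are context chosen after their values were seen. Positions, exons and neighbours are from GENCODE M21 on GRCm38, the assembly of mm10, and counts per kilobase divide by its merged exon length.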

Additional observations from a re-analysis of the deposited data

How the results depend on the processing

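The log2 fold changes of Sln, Nmbr, Ppp1r17 and Parp3 kept their direction in each of the 10 other fits, and the lowest of the 4 was never below 2.198 in them. Leaving out 1 library of a pair leaves the other pair alone under the block. Without replicate 1 or 2 the lowest of the 4 was 2.02 and 2.41, and Parp3 had 2.96 and 2.41. Leaving out a pair put Atp2a2 at -0.036 and 0.05, Atp2a3 at 0.061 and -0.74, Grpr at -0.03 and -1.27, Nmb at -0.25 and 0.16, Parp1 at -0.07 and -0.40 and Parp2 at -0.35 and -0.42, values with no test.

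With no replicate block, limma and edgeR called 0 genes in either direction and 0 relatives. In limma 170 genes then had an unadjusted p under 0.05, and in edgeR 174. Limma with the block called 813 genes higher and 2228 lower, and 2 relatives (Parp1 and Parp2). DESeq2 with the replicate block called 832 genes, 289 higher and 543 lower. TMM factors gave 1360 lower, and upper-quartile factors gave 1251 higher and 917 lower. The relatives called were 1, Parp2, in edgeR and DESeq2 with the block, with a pseudocount of 0.5, and with TMM or upper-quartile factors. The sign of Nmb, near 0 throughout, turned to 0.003 in edgeR with the block, 0.005 with TMM and 0.058 with upper-quartile factors. A change of scaling shifts genes by nearly the same amount, and the cause of these moves was not tested. With 3 to 22 reads a library, Grpr and Atp2a3 are limited by depth.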
